A study of Mus musculus with 16 samples.

Results

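The 31 genes described here serve MHC class I antigen presentation and the interferon response. They were taken by symbol from a list of antigen presentation and interferon response genes. The rule uses no measured value, but the list was proposed when earlier results of these data were known. All 31 were found among the 28683 genes counted. They were followed across cell types and groups in 16 Drop-seq libraries of the mouse hypothalamus and preoptic area, with 1 library per mouse. All mice were females on a mixed CD-1;129P2 background that carried floxed *Esr1* alleles (*Esr1* F/F). *Esr1* cKO mice also carried the *Nkx2-1*-Cre transgene, which limits the deletion to cells of the *Nkx2-1* lineage, and WT mice were littermates without Cre. Mice were 8 to 10 weeks old at the start and received tamoxifen at 0.1 mg/kg, or corn oil with ethanol as vehicle, by daily subcutaneous injection for 4 weeks. The groups were WT oil (n = 3), WT tamoxifen (n = 5), *Esr1* cKO oil (n = 4) and *Esr1* cKO tamoxifen (n = 4). Tissue was taken 2 h after the last injection and dissociated with papain. The study found no significant drop of *Esr1* transcripts in its single-cell data from *Esr1* cKO mice, while staining for the receptor protein was lost in several areas. The level of *Esr1* therefore checks neither the genotype nor the label here.

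Of 146538 barcodes, 55675 were kept as cells, with 1717573 to 5457033 unique molecular identifiers (UMIs) per library and a median of 563 to 819 UMIs per cell. A pair of libraries, WT oil replicate 3 and *Esr1* cKO tamoxifen replicate 3, stood apart from the others on the first principal component, which held 57.9% of the variance. The deposited counts of this pair also differed in form. The lowest number of detected genes in a deposited barcode was 100 in both, against 20 in every other library. Whether the pair was processed differently before deposit was not tested. A total of 520 barcodes were kept in more than 1 library. Of these, 4 libraries shared 303 to 359 in pairs while other pairs shared 42 at most. The 4 were WT tamoxifen replicates 4 and 5, *Esr1* cKO oil replicate 4 and *Esr1* cKO tamoxifen replicate 4, with no WT oil library among them. Counts of members reported below were also computed without the 2 libraries and without the shared barcodes. The 9 cell types were named from fixed markers, and between 9 and 12 markers of the list that gave each type its name were detected. Clusters were made with the 31 genes and all pathway lists left out of the variable genes. When they were kept in, 93.8% to 99.9% of the cells of each type received the same name. The types still came from the other genes of the same cells, so tests between types show how regular a difference was over mice and are no independent proof of a type.

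MHC class I molecules are made of a polymorphic heavy chain and beta-2 microglobulin, and carry peptides from inside the cell to its surface, where CD8 T cells and natural killer cells read them. The peptides are cut by the proteasome, whose catalytic subunits can be exchanged for those of the immunoproteasome, and are pumped and loaded in the endoplasmic reticulum by TAP and tapasin. Type I interferons signal through IFNAR1 and IFNAR2 to a complex that holds STAT2 and IRF9, and interferon gamma signals through IFNGR1 and IFNGR2. Both induce the MHC class I genes and a large set of antiviral effectors. In the healthy brain, MHC class I is known to be low in most neurons and glia and higher in vessels and microglia.

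The members were mostly highest in endothelial cells, fibroblasts and microglia, and mostly lowest in neurons and oligodendrocytes. Levels are given as CPM (counts-per-million), the UMIs of a gene relative to all UMIs of the same cells in 1 mouse. UMIs are 3′ tags counted once per molecule and were not divided by gene length. Of the 31 members, endothelial cells had the highest mean level for 20, fibroblasts for 6, microglia for 3 and ependymal cells for 2. In the fit of each type against the mean of the other 8, 28 members passed the filter on low counts and *Tap1*, *Irf7* and *Nlrc5* did not. The type with the highest mean differed from the next in 19 of those 28 (edgeR quasi-likelihood test, library as a factor, adjusted p under 0.05). The types compared were picked by the levels of the same mice, and the share over all genes was not computed. This count is therefore a description.

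**Figure D1:**
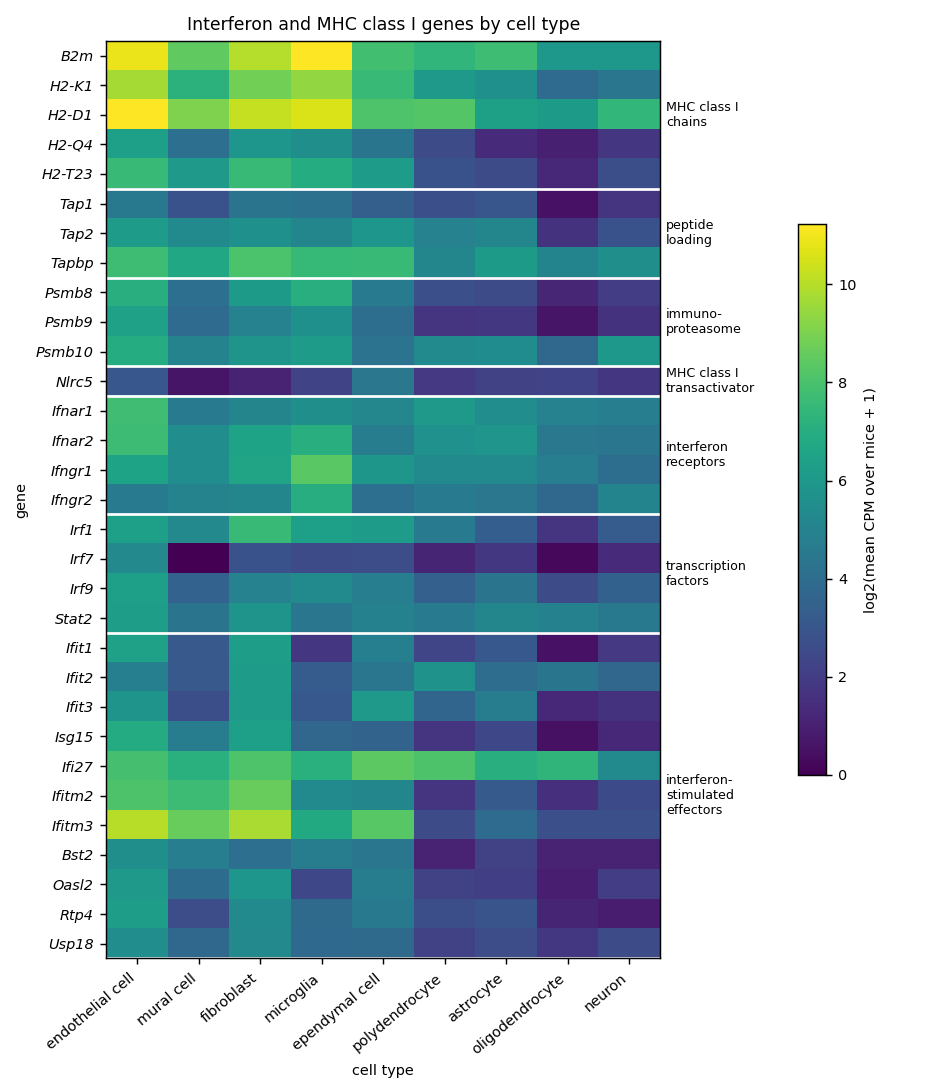
Mean level of the 31 members (rows, grouped by role) in 9 cell types (columns), as log2(CPM + 1) of the mean over mice. The endothelial, fibroblast and microglial columns are the brightest (yellow and green) and the neuron and oligodendrocyte columns mostly the darkest; *B2m* and *H2-D1* have the highest levels, at 2388 CPM in microglia and 2338 CPM in endothelial cells.

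Endothelial cells were higher for 27 of 28 members and lower for 0, with a median log2 difference of 2.74, where 34.1% of all 10517 genes tested were higher. In fibroblasts 25 members were higher and 1 lower (17.8% of all genes higher), and in microglia 22 were higher and 3 lower (31.4%). Without the 2 libraries that stood apart the counts were 27, 25 and 21, and without shared barcodes 27, 24 and 22. With the 52640 cells left after removal of those whose finer cluster had another name or was led by globin genes, an alternative chosen after seeing the data, they were 26 for endothelial cells, 25 for fibroblasts and 17 for microglia. In ependymal cells 17 members were higher and 6 lower (33.9%), and in mural cells 7 were higher and 6 lower (18.2%). The glial and neuronal types had the opposite balance. Polydendrocytes, the precursors of oligodendrocytes, were higher for 3 members and lower for 23 (33.3%), and astrocytes were higher for 2 and lower for 19 (36.9%). Neurons were higher for 1 and lower for 26 (42%), with a median of −2.17. Oligodendrocytes were higher for 1 and lower for 25 (32.8%), with a median of −2.62. The percentages in brackets are the shares of all genes that were higher. Of all 10517 genes tested, 3396 were lower in polydendrocytes, 3466 in astrocytes, 4079 in neurons and 4249 in oligodendrocytes. The median log2 difference over all genes lay between −0.26 and 0.01 in the 9 types. With DESeq2 size factors the median of all genes moved by 0.23 in astrocytes, 0.19 in polydendrocytes, −0.13 in mural cells and −0.23 in endothelial cells. Astrocytes were then higher for 7 members.

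The 5 MHC class I chains were higher in endothelial cells, fibroblasts and microglia in every case, and lower in neurons, astrocytes, oligodendrocytes and polydendrocytes. *B2m*, the light chain shared by all class I molecules, had a lowest, median and highest mouse of 1736, 2273 and 4006 CPM in microglia. In endothelial cells the 3 values were 1146, 1908 and 2965 CPM, and in oligodendrocytes 30.8, 55.3 and 156 CPM. Every mouse had far more *B2m* in its microglia and endothelial cells than any mouse had in its oligodendrocytes. The step from microglia to endothelial cells was 0.55 ± 0.09 on the log2 scale (SE, edgeR adjusted p = 3.5e-08), with microglia higher in 13 of 16 mice. The classical heavy chain gene *H2-D1* ran from 1342 to 3735 CPM in endothelial cells (median 2266) and from 1061 to 2763 CPM in microglia (median 1428). Neurons held 121 to 236 CPM of *H2-D1*, above the 51.9 to 128 CPM of astrocytes, and the neuron level was higher in all 16 mice (log2 difference 0.87 ± 0.12 SE, adjusted p = 1.8e-11). The other classical gene, *H2-K1*, had 834 CPM in endothelial cells and 675 CPM in microglia, which did not differ beyond their spread (adjusted p = 0.43). It had 20.03 CPM in neurons. The nonclassical genes were scarcer. *H2-T23*, which encodes the ligand of the natural killer receptor NKG2A, had 193 CPM in fibroblasts and 189 CPM in endothelial cells, which did not differ (adjusted p = 0.30), and 1.39 CPM in oligodendrocytes. *H2-Q4* had 79.5 CPM in endothelial cells and 0.988 CPM in oligodendrocytes. The heavy chain genes are near-identical to each other and to further class I genes, as are *Ifit3* and *Ifitm2* to copies of theirs, so that the way reads were shared between copies leaves their single values uncertain.

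**Figure D2:**
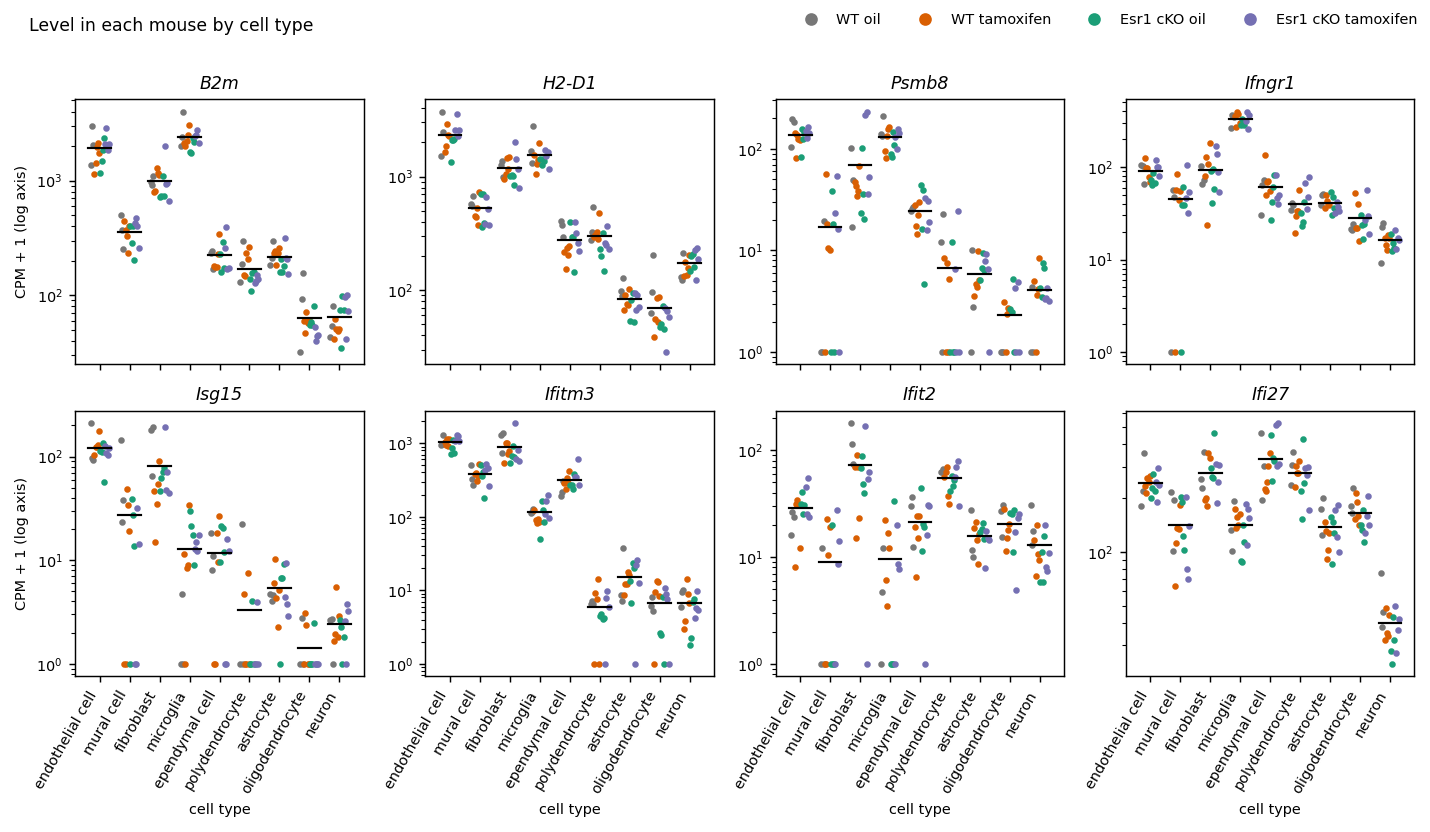
Level as CPM + 1 (vertical axis, log scale) of 8 members in each mouse (points, coloured by group) by cell type (horizontal axis), with a bar at the mean. *B2m* and *H2-D1* separate the vascular and microglial types from oligodendrocytes in every mouse, *Ifngr1* stands out in microglia, and *Isg15* and *Ifitm3* in endothelial cells and fibroblasts.

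Of the 31 members, 9 lie on chromosome 17, within the mouse MHC. The promoters shown next are those of the light chain, of the most abundant heavy chain and of the region between *Tap1* and *Psmb9*, whose start sites face away from each other across 225 bases. They are printed from RefSeq (GRCm38.p6) in the sense of the gene, with the 200 bases before the start for *B2m* (chr2:122147487-122147686, plus strand) and *H2-D1* (chr17:35262894-35263093, plus strand), and the whole region for *Tap1* and *Psmb9* (chr17:34187331-34187555, plus strand). Capitals mark the interferon-stimulated response element core GAAANNGAAA and the box CCAAT, each on either strand. CCAAT is bound by NF-Y, a part of the complex through which NLRC5 acts on class I genes.
B2m: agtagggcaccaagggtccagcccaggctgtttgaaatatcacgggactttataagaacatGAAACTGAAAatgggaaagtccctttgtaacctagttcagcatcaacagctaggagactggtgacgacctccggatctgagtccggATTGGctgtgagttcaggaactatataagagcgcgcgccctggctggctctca
H2-D1: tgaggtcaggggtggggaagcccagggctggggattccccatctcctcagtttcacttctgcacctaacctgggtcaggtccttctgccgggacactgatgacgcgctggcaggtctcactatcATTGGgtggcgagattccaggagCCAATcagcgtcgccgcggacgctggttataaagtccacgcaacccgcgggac
Tap1-Psmb9: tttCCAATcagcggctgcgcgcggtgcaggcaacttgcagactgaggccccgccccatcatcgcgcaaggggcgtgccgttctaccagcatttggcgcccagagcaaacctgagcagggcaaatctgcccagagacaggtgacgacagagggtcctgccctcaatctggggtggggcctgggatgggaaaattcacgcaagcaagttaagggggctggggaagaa

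RefSeq promoters matched 26 of the 31 members, and the 250 bases before the start were searched. CCAAT was found for 15 of the 26, among them all 5 class I chains, and in 33.8% of the 32851 promoters of the table. In *B2m* the response element core began 139 bases before the start. A match of letters is a description and not a binding site.

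Of the peptide loading genes, *Tapbp*, which encodes tapasin, had a median mouse of 219 CPM in endothelial cells and 217 CPM in fibroblasts, and 33.7 CPM in oligodendrocytes. Its highest mean level was in fibroblasts, at 261 CPM, against 213 CPM in endothelial cells. *Tap2*, which encodes 1 chain of the peptide pump, had 73.5 CPM in the median mouse in endothelial cells, and was also higher in astrocytes than in the mean of the other types (log2 difference 0.58 ± 0.13 SE, edgeR adjusted p = 2.0e-05), with 34.4 CPM in the median mouse. *Tap1*, which encodes the other chain, had 22.3 CPM in endothelial cells, and its 461 UMIs over all cells were too few for the fit by type. *Nlrc5*, the transactivator of class I genes, had 306 UMIs in all and no more than 63 of them in endothelial cells. Its highest mean level was in ependymal cells, where mice ran from 0 to 69.2 CPM, and the level was 31.2 CPM in the finer cluster named ciliated ependymal cell-like. There 104 UMIs came from 1895 cells of 16 mice, of which 3 had none.

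The immunoproteasome subunits were concentrated in endothelial cells and microglia. *Psmb8* had a lowest, median and highest mouse of 81.1, 139 and 194 CPM in endothelial cells and of 80.4, 133 and 210 CPM in microglia, where the ranges overlapped. It had 1.44 CPM in the median mouse in oligodendrocytes. *Psmb9* had 80.0 CPM in the median mouse in endothelial cells, 46.9 CPM in microglia and 0 CPM in oligodendrocytes. *Psmb10* differed from both in being present in neurons, at 40.1 to 82.6 CPM. It was the only one of the 28 members that was higher in neurons than in the mean of the other types (log2 difference 0.50 ± 0.08 SE, edgeR adjusted p = 1.7e-08). Its mean level was still higher in endothelial cells (122 CPM) and microglia (72.3 CPM) than in neurons (62.6 CPM). Each inducible subunit replaces a constitutive one in the catalytic ring, so their UMIs were also read as a share of the pair. Of the UMIs of *Psmb8* and its constitutive partner *Psmb5*, *Psmb8* took 80.7% in microglia (95% exact Clopper-Pearson interval 77.5% to 83.7%) and 65.7% in endothelial cells (63.4% to 67.9%). It took 48.2% in fibroblasts, 21.9% in ependymal cells, 3.05% in neurons and 2.05% in oligodendrocytes (1.09% to 3.48%). *Psmb9* took less of its pair with *Psmb6*, at 29.8% in endothelial cells, 29.7% in microglia and 0.284% in oligodendrocytes. *Psmb10* took 72.4% of its pair with *Psmb7* in endothelial cells and 63.4% in microglia. It took 55.8% in fibroblasts, 47.5% in astrocytes, 47.0% in neurons, 42.1% in polydendrocytes and 15.7% in oligodendrocytes. These intervals cover counting error only. Over mice the *Psmb8* share ran from 71.0% to 90.0% in microglia and from 0% to 6.25% in oligodendrocytes, without overlap. The constitutive partners themselves were not lower in endothelial cells, with 0 of 3 called in either direction, while 2 of 3 were lower in microglia and all 3 were higher in neurons and in oligodendrocytes.

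**Figure D3:**
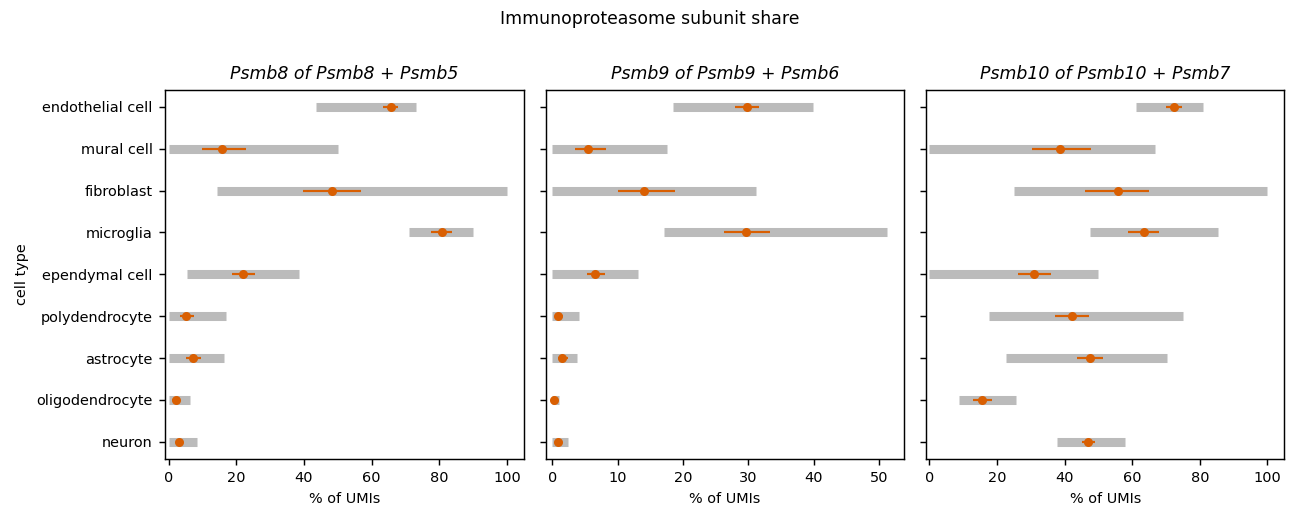
Share of UMIs from the inducible subunit in each pair of proteasome subunits (*Psmb8* with *Psmb5*, *Psmb9* with *Psmb6*, *Psmb10* with *Psmb7*), in percent, by cell type. Points are pooled over mice with 95% intervals and grey lines span the mice; the *Psmb8* share falls from 80.7% in microglia to 2.05% in oligodendrocytes, and only *Psmb10* of the 3 takes a large share, 47.0%, in neurons.

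The receptors split by interferon type in where they were highest. Microglia were higher than the mean of the other types for all 4 receptor genes, and endothelial cells for 3. Of all genes tested, 31.4% were higher in microglia and 34.1% in endothelial cells. The type I receptor genes peaked in endothelial cells. *Ifnar1* had 158 to 289 CPM there (median 203), above the 33.3 to 102 CPM of polydendrocytes and the 26.0 to 71.3 CPM of microglia in every mouse. *Ifnar2* had 132 to 283 CPM in endothelial cells (median 212) and 65.5 to 184 CPM in microglia (median 137). The receptor genes for interferon gamma peaked in microglia. *Ifngr1*, the ligand-binding chain, had a lowest, median and highest mouse of 259, 328 and 398 CPM in microglia and of 62.8, 92.0 and 125 CPM in endothelial cells, without overlap. *Ifngr2*, the signalling chain, had 71.3 to 170 CPM in microglia (median 124) and 23.6 to 45.2 CPM in neurons (median 29.8), without overlap between these types. The ranges of fibroblasts (0 to 72.4 CPM) and mural cells (0 to 201 CPM) did overlap that of microglia. Microglia were higher than the mean of the other types by 3.18 ± 0.07 on the log2 scale for *Ifngr1* and by 2.80 ± 0.11 for *Ifngr2* (SE, edgeR adjusted p = 5.7e-91 and 6.3e-57). Endothelial cells were higher by 2.6 ± 0.07 for *Ifnar1* and by 2.16 ± 0.07 for *Ifnar2* (adjusted p = 1.7e-77 and 2.3e-66). *Ifngr2* in endothelial cells was the only one of 28 members that was not called higher there, with a log2 difference of −0.21 ± 0.14 (adjusted p = 0.18). Ligand transcripts were nearly absent at this depth. The 15 interferon genes of the list had 82 UMIs in all, of which 57 were *Ifng* and 9 *Ifnb1*.

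The transcription factors of the pathway were lower in level. *Irf1*, which interferon gamma induces, had 38.5 to 635 CPM in fibroblasts (median 163), 45.2 to 127 CPM in endothelial cells and 39.4 to 131 CPM in microglia. *Irf9*, the DNA-binding part of the complex that type I interferons activate, had 57.1 to 104 CPM in endothelial cells (median 81.8) and at most 57.6 CPM in any mouse in microglia. *Stat2*, its partner, had 47.7 to 104 CPM in endothelial cells and 15.4 to 36.4 CPM in neurons. *Irf7*, which amplifies type I interferon production and is itself induced by interferon, had 14.9 to 64.2 CPM in endothelial cells (median 36.0). It was at 0 in mural cells, with 338 of its 452 UMIs in endothelial cells.

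All 11 interferon-stimulated effectors were higher in endothelial cells and in fibroblasts, and none of them in neurons. In ependymal cells 8 of them were higher and 0 lower, and in microglia 6 were higher and 3 lower. Of all genes tested, 34.1% were higher in endothelial cells, 17.8% in fibroblasts, 42% in neurons, 33.9% in ependymal cells and 31.4% in microglia. *Ifitm3*, a membrane protein that blocks virus entry, had a lowest, median and highest mouse of 701, 1051 and 1311 CPM in endothelial cells, 537, 763 and 1866 CPM in fibroblasts and 0.82, 5.27 and 13.4 CPM in neurons. Endothelial cells were higher than the mean of the other types by 4.45 ± 0.07 on the log2 scale (SE, edgeR adjusted p = 2.5e-116). *Isg15*, a ubiquitin-like modifier, had 55.6 to 209 CPM in endothelial cells (median 117), 14.1 to 193 CPM in fibroblasts (median 62.6) and 0 CPM in the median mouse in oligodendrocytes. *Ifitm2* was higher in fibroblasts than in endothelial cells (log2 difference 0.37 ± 0.11 SE, edgeR adjusted p = 0.0038, 15 of 16 mice), at 192 to 787 CPM (median 337) against 173 to 425 CPM in endothelial cells (median 243), and it reached 198 CPM in the median mouse in mural cells. The IFIT proteins, which bind foreign RNA, parted ways. *Ifit1* had 85.7 CPM in the median mouse in endothelial cells and 59.8 CPM in fibroblasts, and 1.52 CPM in polydendrocytes. *Ifit2* was highest in fibroblasts (median 67.9 CPM) and next in polydendrocytes (29.3 to 78.6 CPM, median 55.7), which were higher than the mean of the other types (log2 difference 1.27 ± 0.15 SE, adjusted p = 3.1e-13). *Ifit3* had its highest mean level in fibroblasts (70.7 CPM), then in ependymal cells (63.5 CPM) and endothelial cells (55.3 CPM). It had 51.6 CPM in the median mouse in endothelial cells and 22.5 CPM in astrocytes, which were higher than the mean of the other types (1.07 ± 0.17, edgeR adjusted p = 1.7e-08). *Ifi27*, a mitochondrial protein, was the most even of the group. It had 194 to 524 CPM in ependymal cells (median 304), 152 to 429 CPM in polydendrocytes (median 277) and 112 to 227 CPM in oligodendrocytes (median 157). It was the only member higher in oligodendrocytes than in the mean of the other types (0.24 ± 0.07, edgeR adjusted p = 0.0016). Its mean level of 163 CPM there was below those of ependymal cells (331 CPM), fibroblasts (277 CPM), polydendrocytes (274 CPM) and endothelial cells (240 CPM). *Bst2* (tetherin), *Oasl2*, *Rtp4* and *Usp18*, the last a brake on the type I receptor, had 44.5 to 76.2 CPM in the median mouse in endothelial cells and 2.53 CPM or less in oligodendrocytes.

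The promoters of 4 effectors are shown because they hold more than 1 match to the response element core. Those of *Ifitm3* and *Oasl2*, which were also high in endothelial cells and fibroblasts, held 0 matches. The 4 are printed 5′ to 3′ in the sense of the gene from the same RefSeq build, the 200 bases before the start, for *Isg15* (chr4:156200819-156201018, minus strand), *Ifit1* (chr19:34640689-34640888, plus strand), *Ifit3* (chr19:34583329-34583528, plus strand) and *Bst2* (chr8:71537473-71537672, minus strand). Capitals mark GAAANNGAAA on either strand, with overlapping matches joined.
Isg15: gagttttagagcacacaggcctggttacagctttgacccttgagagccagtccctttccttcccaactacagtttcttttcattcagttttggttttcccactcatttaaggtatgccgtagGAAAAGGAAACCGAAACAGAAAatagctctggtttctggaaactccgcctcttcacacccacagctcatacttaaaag
Ifit1: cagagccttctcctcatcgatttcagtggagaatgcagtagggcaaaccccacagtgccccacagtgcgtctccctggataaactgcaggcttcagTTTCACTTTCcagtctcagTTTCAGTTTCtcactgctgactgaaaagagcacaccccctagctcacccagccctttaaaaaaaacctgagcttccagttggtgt
Ifit3: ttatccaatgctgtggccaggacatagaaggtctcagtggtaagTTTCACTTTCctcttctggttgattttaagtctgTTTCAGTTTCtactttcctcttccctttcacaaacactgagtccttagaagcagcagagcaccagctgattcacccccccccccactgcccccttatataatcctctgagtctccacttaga
Bst2: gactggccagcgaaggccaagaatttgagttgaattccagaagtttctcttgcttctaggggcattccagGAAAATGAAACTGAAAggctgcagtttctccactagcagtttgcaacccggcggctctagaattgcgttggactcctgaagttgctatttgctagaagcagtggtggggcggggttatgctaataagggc

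The core was found for 8 of 26 members (*B2m*, *Bst2*, *H2-T23*, *Ifit1*, *Ifit3*, *Ifitm2*, *Isg15* and *Stat2*) and in 2.98% of the 32851 promoters. In *Isg15* 3 overlapping matches began 78, 72 and 66 bases before the start, and *Ifit1* and *Ifit3* each had 2. The gamma-activated site TTCNNNGAA was found for 5 members (*Bst2*, *Ifit2*, *Ifnar2*, *Irf1* and *Psmb8*) and in 7.02% of promoters. In *Bst2* it overlapped the response element core, beginning 136 bases before the start.

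Shares of cells with a UMI show how widely the transcripts were spread. *H2-D1* was seen in 70.3% of 7167 endothelial cells (95% exact interval 69.2% to 71.4%, median depth 731 UMIs) and in 5.04% of 9222 oligodendrocytes (median depth 753 UMIs). *B2m* was seen in 68.2% of microglia (median depth 615 UMIs) and 4.65% of oligodendrocytes. Free RNA in the droplets can give such single UMIs, so the oligodendrocyte share is an upper reading of that background. *Ifitm3* was seen in 49.3% of endothelial cells and 0.499% of oligodendrocytes, and *Isg15* in 10.7% and 0.0434%. *Ifit3* was seen in 6.49% of 971 fibroblasts and 0.119% of oligodendrocytes. *Ifi27* was seen in 28.3% of 3382 ependymal cells and 12.3% of oligodendrocytes. With cells thinned to 500 UMIs, which left out 2210 endothelial cells and 2239 oligodendrocytes, *H2-D1* was at 60.5% and 2.91%. UMIs of at least 3 of the 11 effectors were found together in 1359 endothelial cells, or 19.0% (18.1% to 19.9%), with a range over mice of 9.41% to 28.9%. They were found in 16.7% of fibroblasts, 7.54% of ependymal cells, 0.835% of microglia and 2 of 9222 oligodendrocytes. At 500 UMIs the share was 4.50% in endothelial cells, 5.17% in fibroblasts, 0.818% in ependymal cells, whose median depth was 1092 UMIs, 0.202% in microglia, and 0 of 6983 in oligodendrocytes.

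The finer clusters divided some of the types. Of the 7167 endothelial cells, 1569 lay in a finer cluster led by *Gkn3* and *Rgs5* that matched 12 of 12 mural markers. *Gkn3* and *Ly6c1*, from the marker lists of arterial endothelial and endothelial cells, were also among its leading genes. Its median depth was 1457 UMIs. Whether its cells were mural, endothelial or both together was not tested, so endothelial levels and shares are those of a mixed class. *H2-D1* had 2464 CPM in that cluster and 2559 CPM in the 5211 cells led by *Itm2a*, and *Ifitm3* had 1074 and 1082 CPM. A cluster of 709 cells (708 of the microglial type) led by *S100a8*, *Lyz2*, *Cxcl2* and *Pf4* had higher levels of the IFITM genes than the 4679 microglia-like cells (4678 of the microglial type). It was left without a name, since neutrophil genes (*S100a8*, *S100a9*) stood beside macrophage genes (*Pf4*, *Mrc1*) among its leading genes. *Ifitm3* had 733 ± 212 CPM against 23.8 ± 14.4 CPM (SD, n = 16) and *Ifitm2* 269 ± 104 against 4.69 ± 4.93 CPM, both higher in 16 of 16 mice. *H2-D1* was at 2473 ± 800 against 1397 ± 382 CPM (15 of 16 mice) and *Psmb8* at 234 ± 124 against 115 ± 29.1 CPM (14 of 16 mice). *Ifngr2* had the opposite order, at 74.2 ± 53.6 against 135 ± 31.9 CPM, and was higher in the unnamed cluster in 4 of 16 mice. The same cluster led in MHC class II, with *Cd74*, the invariant chain, at 3524 ± 1524 against 294 ± 135 CPM. Within the ependymal type, *Ifi27* had 534 CPM in the tanycyte-like cells, the glia that line the floor of the third ventricle, and 236 CPM in the ciliated cells. *Ifit3* had 111 and 28.5 CPM, and *Psmb8* 60.9 and 6.30 CPM, in the same order. *Ifitm3* went the other way, with 212 CPM in tanycyte-like and 371 CPM in ciliated cells. Within the polydendrocytes, *Ifi27* had 488 CPM in 378 committed precursor-like cells led by *Gpr17* and 238 CPM in the others, while *Ifit2* had 7.98 and 62.5 CPM. *Irf1* had 243 CPM in 212 cells like those of the pars tuberalis, from 9 mice. These clusters came from the same cells and the values are descriptions.

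The wider pathway followed the members in part. Of 76 further interferon-stimulated genes in the files, 46 were tested, of which 43 were higher in endothelial cells and 39 in microglia, against 29 in fibroblasts and 3 in neurons. Of all genes tested, 34.1% were higher in endothelial cells, 31.4% in microglia, 17.8% in fibroblasts and 42% in neurons. The highest of them in endothelial cells were *Ly6a* (2708 CPM), *Ly6e* (1531 CPM) and *Gbp7* (260 CPM). *Ly6a* was also among the markers that named the endothelial type, so its high level there was set by the naming. Of 8 further class I and loading genes tested, 6 were higher and 2 lower in endothelial cells and 7 higher in microglia. Of 6 MHC class II genes tested, 6 were higher in microglia and 4 in endothelial cells. The class II list holds *Ctss*, which was also among the markers that named microglia. Of 8 JAK-STAT partners of the receptors, 7 were higher in microglia and 5 in endothelial cells, and of 5 further interferon regulatory factors 5 and 4, led in microglia by *Irf8* at 342 CPM.

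Between mice, the members moved over a range of 1.65-fold (*Tapbp*) to 7.18-fold (*Nlrc5*) in the sum of all cells. In such sums fewer cells of a type and less RNA per cell cannot be told apart. The 5 members with the largest spread were *Nlrc5*, *Irf7*, *H2-K1*, *H2-Q4* and *Oasl2*. *H2-K1* had 121, 288 and 302 CPM in the 3 WT oil mice and 112, 111, 296, 232 and 198 CPM in the 5 WT tamoxifen mice. It had 118, 174, 170 and 259 CPM in the *Esr1* cKO oil mice and 200, 412, 224 and 228 CPM in the *Esr1* cKO tamoxifen mice. All 4 groups overlapped, and 1 *Esr1* cKO tamoxifen mouse was the highest. *H2-Q4* had group medians of 22.7, 14.2, 15.3 and 20.8 CPM in the same order of groups, and that mouse was again the highest at 40.04 CPM. *Oasl2* had medians of 16.3, 17.2, 15.96 and 15.88 CPM. *Irf7* had medians of 4.33, 7.98, 5.37 and 8.401 CPM, with a range of 3.28 to 14.3 CPM in WT tamoxifen mice. *Nlrc5* had medians of 5.60, 7.15, 3.89 and 4.04 CPM. The highs and lows gathered in a few libraries. *Esr1* cKO tamoxifen replicate 2 was the highest of 16 for 11 members and WT tamoxifen replicate 3 for 9, and *Esr1* cKO oil replicate 1 was the lowest for 12. Endothelial cells gave 20.9% and 21.6% of the UMIs in the first 2, the 2 largest shares, and 8.80% in the last. The part of this share in the members' levels was not tested in these sums. Comparisons within a cell type use the UMIs of that type alone. Free RNA in the droplets and the mix of finer clusters within a type were not accounted for in them.

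**Figure D4:**
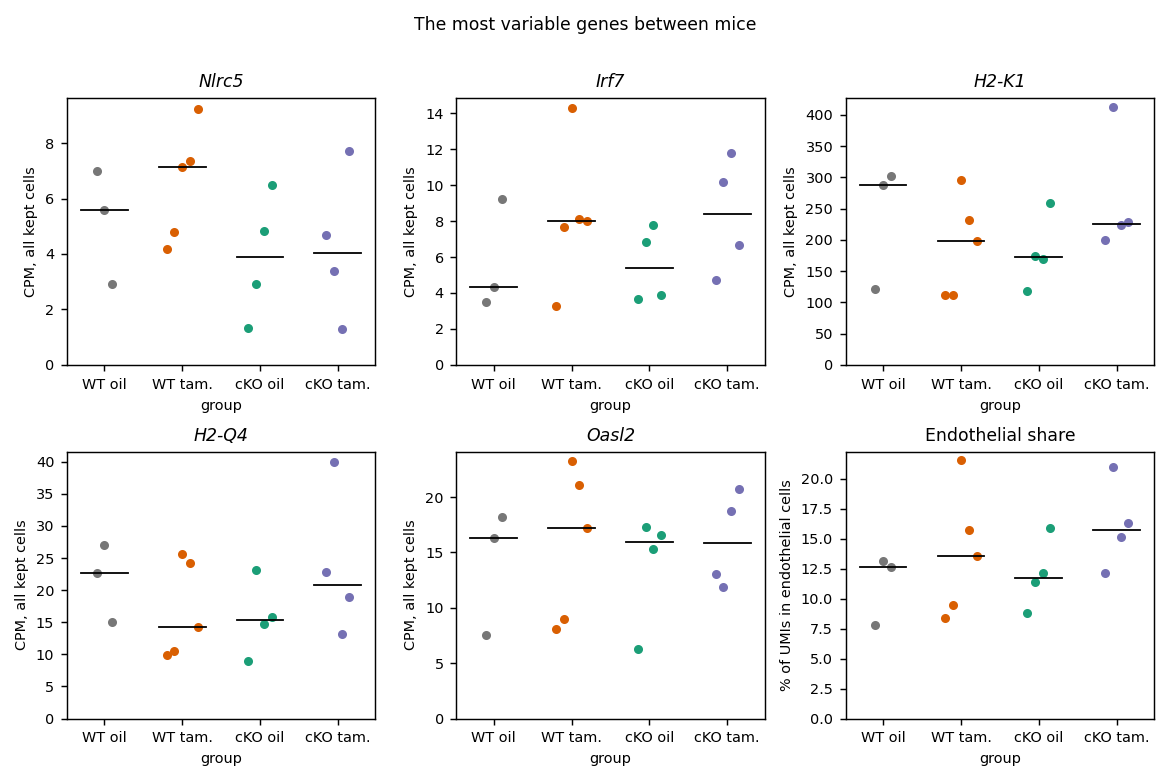
The 5 members with the largest spread between mice, in CPM over all cells of a library, and the share of a library's UMIs from endothelial cells, in percent, by group. Each point is a mouse and the bar is the group median; the groups overlap in every panel, and the endothelial share runs from 7.80% to 21.6%.

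The study compared tamoxifen with oil in each genotype by a Wilcoxon rank-sum test over single cells, and reported significant genes in both genotypes. Here the same groups were compared on UMIs summed per mouse, so that the mouse is the unit. In these tests by mouse, no member was called in any cell type. In WT mice, 134 tests of 30 members in the 9 types and 31 tests in the sum of all cells gave 0 calls (edgeR quasi-likelihood test, smallest adjusted p = 0.99), where 0% of all 65325 tests by type and 0% of 16626 tests over all cells were called. At an unadjusted p under 0.05 there were 11 by type, or 8.21% against 3.24% of all tests, and 2 over all cells, or 6.45% against 1.87%. DESeq2 called 0, with 12 in all at that level. Only the members that passed the filter on low counts enter, 30 in endothelial cells, 19 in microglia and 6 in mural cells. The median 95% interval reached 0.65 on the log2 scale to either side. The fitted differences were above 0 in 44 of 134 tests, or 32.8%, against 52.6% of all genes, and in 12 of 31 over all cells. Without WT oil replicate 3 that second share rose from 38.7% to 71.0%, so its direction rests on that library. In microglia the differences were above 0 in 5 of 19 tests, or 26.3%. Without the 2 libraries that stood apart, this microglial share was 50%. The p-values of the group comparisons weigh a difference against the spread between mice, estimated once for all 4 groups. The main fit had no term for the preparation day or for the libraries that stood apart.

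The 3 members with the smallest unadjusted p in WT mice were *Irf1* in fibroblasts, *H2-D1* in oligodendrocytes and *H2-T23* in microglia, each lower with tamoxifen. *Irf1* had 635, 307 and 193 CPM with oil and 183, 56.6, 135, 144 and 89.6 CPM with tamoxifen. The groups did not overlap, on 4 to 25 UMIs per mouse, and the difference was −1.54 on the log2 scale (95% interval −2.55 to −0.54, edgeR adjusted p = 0.99). Of the 134 member tests by type in WT mice, 5 had no overlap, and the share over all genes was not computed. The lack of overlap is therefore a description and no sign of an effect. *H2-D1* in oligodendrocytes had 61.7, 94.8 and 204 CPM with oil and 37.6, 54.4, 85.1, 51.0 and 85.9 CPM with tamoxifen. The groups overlapped, and 1 oil mouse lay far above the rest (−0.99, −1.67 to −0.30, edgeR adjusted p = 0.99995). The share of oligodendrocytes with an *H2-D1* UMI ran from 1.81% to 13.9% over libraries. The part of free RNA from other cells in these oligodendrocyte values was not tested. *H2-T23* in microglia had 131, 163 and 248 CPM with oil and 94.6, 141, 78.7, 141 and 125 CPM with tamoxifen, with an overlap (−0.71, −1.24 to −0.19, edgeR adjusted p = 0.9999). The highest oil mouse of the last 2 was WT oil replicate 3, which stood apart from the other libraries. Without that library the difference was −0.34 for *H2-D1* and −0.39 for *H2-T23*, and without WT oil replicate 1 it was −0.97 for *Irf1*. The summed level of 13 T and natural killer cell markers moved with this comparison, at 26.0 to 39.0 CPM in WT oil and 11.5 to 22.7 CPM in WT tamoxifen mice, with 0 to 3 of the 13 at 0 in a library. Neutrophil markers summed to 12.9 to 134 CPM in WT oil and 6.56 to 41.0 CPM in WT tamoxifen mice, with an overlap. Red blood cell markers (globins and *Alas2*) summed to 1096 to 5172 CPM and 2990 to 6246 CPM in the same order, also with an overlap. Their part in the members' values was not tested.

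In *Esr1* cKO mice the fitted differences lay mostly on the other side of 0, again with 0 calls in 134 and 31 tests (edgeR, smallest adjusted p = 0.95), where 0% of all tests were called. At an unadjusted p under 0.05 there were 9 by type, or 6.72% against 3.61% of all tests, and 6 over all cells, or 19.4% against 3.25%. DESeq2 called 0, with 13 at that level. Tamoxifen was above oil in 99 of 134 tests, or 73.9%, against 47.4% of all genes, and in 29 of 31 over all cells. In endothelial cells it was above in 26 of 30, with a median of 0.33, and the share ran from 66.7% to 93.3% over the alternatives and the median from 0.14 to 0.39. Of all genes tested in endothelial cells, 46.6% were above 0. In microglia tamoxifen was above oil in 12 of 19, or 63.2%, against 47.6% of all genes. This microglial share ran from 42.1% to 80% over the alternatives, so its direction was not stable. Over the 9 types the share ran from 61.9% to 77.2%. Both were lowest with a term in the fit for the 2 libraries that stood apart. The genes of 1 library share its makeup, so these counts are descriptions. *Ifitm3* in endothelial cells had 701, 857, 1088 and 739 CPM with oil and 1084, 1311, 1258 and 1073 CPM with tamoxifen. The groups met only in 1 oil mouse, and the difference was 0.49 (95% interval 0.16 to 0.82, edgeR adjusted p = 0.99995). In the sum of all cells, *Psmb10* had 42.4, 39.5, 58.9 and 44.4 CPM with oil and 72.0, 63.7, 67.2 and 52.9 CPM with tamoxifen, with an overlap (0.45, 0.13 to 0.77, edgeR adjusted p = 0.9999). *Bst2* had 4.97, 7.83, 10.9 and 6.23 CPM with oil and 9.04, 17.5, 11.4 and 14.6 CPM with tamoxifen, with an overlap (0.77, 0.20 to 1.34, edgeR adjusted p = 0.9999). Endothelial cells gave 8.80% to 15.9% of UMIs with oil and 12.1% to 20.9% with tamoxifen in these mice. *H2-D1* and *Ifnar2* in endothelial cells did not overlap between oil and tamoxifen, at means of 1927 ± 390 and 2748 ± 567.9 CPM and of 162 ± 29.6 and 228 ± 36.7 CPM (SD, n = 4 and 4, edgeR adjusted p = 0.99995 for both). They were named after their values were seen. Of the 134 member tests by type in *Esr1* cKO mice, 5 had no overlap between oil and tamoxifen, and the share over all genes was not computed. Here too the lack of overlap is a description and no sign of an effect. Transcripts of other blood cells also moved with the comparison. Of 9 neutrophil markers, 0 to 4 were at 0 in a library with tamoxifen, with sums of 182, 741, 182 and 9.05 CPM, against 6.30 to 26.1 CPM with oil. Globin transcripts were at 2369 to 8962 CPM with tamoxifen and 1356 to 2803 CPM with oil. Their part in the members' values was not tested.

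**Figure D5:**
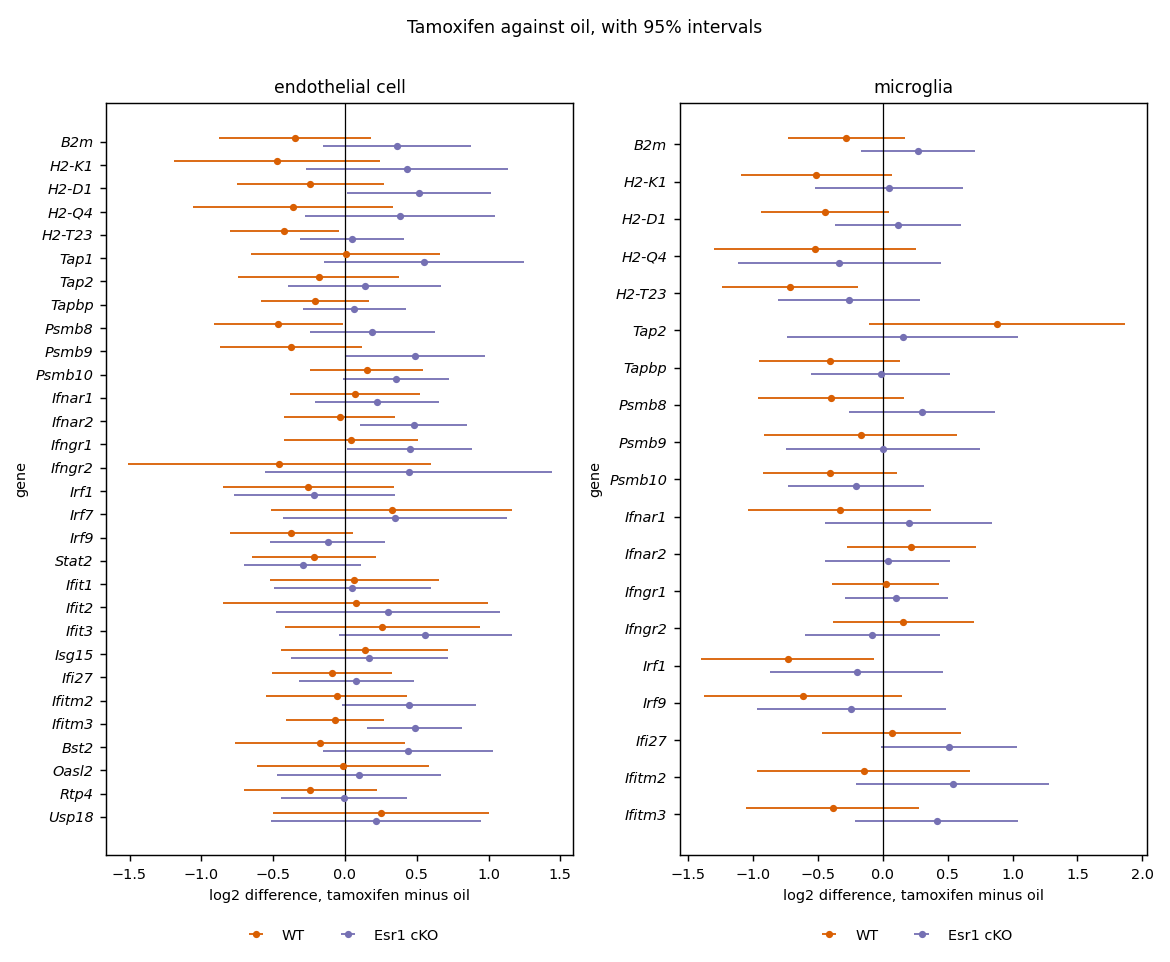
Log2 difference of tamoxifen minus oil (horizontal axis) for 30 members in endothelial cells and 19 in microglia (vertical axis), in WT and *Esr1* cKO mice. Points are edgeR estimates and lines 95% intervals; most intervals include 0, and in endothelial cells the *Esr1* cKO points lie above 0 for 26 of 30 members and the WT points for 10 of 30.

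Whether the tamoxifen effect differed between genotypes was tested as an interaction, which uses the same libraries as both comparisons above and is not independent of them. It gave 0 calls in 134 and 31 tests (edgeR, smallest adjusted p = 0.82), where 0% of all tests were called. At an unadjusted p under 0.05 there were 10 by type, or 7.46% against 4.87% of all tests, and 1 over all cells, or 3.23% against 4.26%. DESeq2 called 0, with 10 at that level. The effect in *Esr1* cKO minus that in WT mice was above 0 in 106 of 134 tests, or 79.1%, against 47.0% of all genes. This share ran from 63.3% to 83.5% over the alternatives. It was lowest without WT oil replicate 3 and *Esr1* cKO tamoxifen replicate 3, the libraries that stood apart. *H2-K1* in astrocytes had 45.1, 41.3 and 90.1 CPM in WT oil and 35.4, 33.0, 50.3, 43.1 and 50.1 CPM in WT tamoxifen mice. It had 28.5, 52.2, 42.7 and 35.5 CPM in *Esr1* cKO oil and 51.3, 45.6, 67.0 and 70.5 CPM in *Esr1* cKO tamoxifen mice. The difference of the effects was 1.07 on the log2 scale (95% interval 0.25 to 1.89, edgeR adjusted p = 0.97), and 0.55 without WT oil replicate 3. *Psmb9* in endothelial cells had 59.7, 142 and 95.7 CPM in WT oil and 71.4, 74.3, 106, 83.9 and 66.3 CPM in WT tamoxifen mice. It had 52.8, 80.0, 54.4 and 80.1 CPM in *Esr1* cKO oil and 119, 78.1, 90.0 and 92.8 CPM in *Esr1* cKO tamoxifen mice (0.87, 0.18 to 1.56, edgeR adjusted p = 0.97). Without WT oil replicate 2 the difference was 0.50. For *Ifitm3* in endothelial cells the difference of the effects was 0.55 (0.08 to 1.03, edgeR adjusted p = 0.97), with 955, 980 and 1271 CPM in WT oil and 1029, 943, 1127, 910 and 1122 CPM in WT tamoxifen mice. In each of the 3, the WT values of both treatments overlapped widely.

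Genotype over both treatments likewise gave 0 member calls in 134 and 31 tests (edgeR, smallest adjusted p = 0.9994), where 0.00306% of all tests by type, 2 genes in neurons, and 0% over all cells were called. At an unadjusted p under 0.05 there were 9 by type, or 6.72% against 3.44% of all tests, and 0 over all cells, against 4.31%. DESeq2 called 0, with 6 at that level. *Esr1* cKO was above WT in 52 of 134 tests, or 38.8%, against 50.2% of all genes. The members with the smallest p were *B2m* in polydendrocytes, *H2-D1* in oligodendrocytes and *H2-T23* in microglia. *B2m* had 129, 185 and 294 CPM in WT oil and 148, 145, 231, 204 and 262 CPM in WT tamoxifen mice, against 136, 108, 155 and 159 CPM and 128, 131, 148 and 137 CPM in the *Esr1* cKO groups (−0.50, 95% interval −0.84 to −0.15, edgeR adjusted p = 0.9994). *H2-D1* in oligodendrocytes had 46.0, 49.5, 71.6 and 44.2 CPM in *Esr1* cKO oil and 68.4, 27.5, 64.2 and 56.4 CPM in *Esr1* cKO tamoxifen mice (−0.68, −1.18 to −0.18, edgeR adjusted p = 0.9995), and the difference was −0.36 without WT oil replicate 3. The part of free RNA in these oligodendrocyte values was again not tested. *H2-T23* in microglia had 107, 124, 124 and 88.6 CPM and 89.1, 98.4, 105 and 79.9 CPM in those groups (−0.51, −0.89 to −0.14, edgeR adjusted p = 0.9999). The genotypes overlapped for all 3. Of the wider pathway lists, no gene was called in any of these 4 comparisons.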

How the data were processed

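The authors deposited Drop-seq UMI counts per gene and cell for each of the 16 libraries, not normalized. The labels name STAR 2.6, Seurat 3.6.1 and the mouse build mm10, while the counting program and gene annotation are not given in the sources used here. A barcode was kept as a cell if its detected genes lay between 200 and 4000 (both limits excluded) and mitochondrial UMIs made up less than 15% of it. Cells that Scrublet called doublets (494) stayed in and were removed as an alternative. Cells were clustered after integration of the 4 groups (Seurat 5.3.0), and cell types were named from marker lists. UMIs were summed per mouse and cell type and tested with edgeR 4.0.16 (quasi-likelihood, TMM scaling, filter on low counts, R 4.3.3) over all genes, with Benjamini-Hochberg adjustment within a type. Types with fewer than 10 cells in a library were left out of that library. DESeq2 1.42.0 was an alternative. The scripts were tested on simulated data. The members and gene lists were chosen with earlier results of these data known. All members were named with the type of their highest level. Per comparison, members with an adjusted p under 0.05 or else the 3 with the smallest p were to be given by mouse, as were the 5 with the largest spread over libraries (SD of log2(CPM + 1), mean of at least 5 CPM). Replicates were numbered in accession order and each is 1 mouse. Intervals on shares are exact Clopper-Pearson and cover counting error only.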

Additional observations from a re-analysis of the deposited data

Results flagged for a closer look

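Within groups of 4 or 5 mice, 114 sets of values (each member over all cells, and the members given by mouse within their cell type) were examined for a single mouse far from the rest by Dixon's test. Of these sets, 5 were flagged, all of them over all cells. Chance gives about 1 in 20, so the number flagged was no more than chance gives. *Esr1* cKO tamoxifen replicate 2 had 412.2 CPM of *H2-K1*, with the next mouse of its group at 228 CPM, and 1034.16 CPM of *H2-D1*, with the next at 655 CPM. Endothelial cells gave 20.9% of the UMIs of this library, its microglial share of UMIs was the highest of the 16 (at most 7.99% in the others), and its neutrophil markers summed to 741 CPM. *Esr1* cKO oil replicate 1 was low, at 17.2416 CPM of *Psmb8* (next 30.6 CPM) and 20.8889 CPM of *Irf9* (next 23.5 CPM), with 8.80% of its UMIs from endothelial cells. *Esr1* cKO oil replicate 4 was high for *Ifnar1*, at 70.3117 CPM with the next mouse at 49.6 CPM. The part of the cell makeup in these values was not tested.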

How the results depend on the processing

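No member was called in any group comparison under any alternative, and the 12 differences described for single members kept their sign under all 28 or 29 alternatives, but 7 of them moved in size by over 1.5 times. *H2-D1* in WT oligodendrocytes ran from −1.25 to −0.34, *H2-T23* in WT microglia from −0.90 to −0.39, *Irf1* in WT fibroblasts from −1.88 to −0.97, and *H2-D1* by genotype from −0.81 to −0.36. Of the interactions, *H2-K1* ran from 0.47 to 2.19, *Psmb9* from 0.50 to 1.04 and *Ifitm3* from 0.34 to 0.70. Counts of members higher in a cell type stayed within 1.5 times of those reported, apart from the following. With DESeq2 size factors astrocytes were higher for 7 members in place of 2. With a mitochondrial share under 5%, mural cells were higher for 4 in place of 7 and polydendrocytes for 1 in place of 3. Neurons were higher for 2 in place of 1, both in cells with more than 500 genes and with no filter on low counts. Oligodendrocytes were higher for 2 with no filter, 0 in the oil libraries alone, and 1 to 2 when libraries were left out one at a time, with 2 without *Esr1* cKO oil replicate 2. Cells thinned to 500 UMIs gave lower shares with a UMI, by construction: 64.4% for *B2m* in microglia, and in endothelial cells 60.5% for *H2-D1*, 36.1% for *Ifitm3*, 5.59% for *Isg15* and 4.50% for at least 3 effectors. They gave 4.62% for *Ifit3* in fibroblasts and 13.8% for *Ifi27* in ependymal cells. No paired analysis was possible because the labels give neither a preparation day nor replicate numbers that groups share. Per the study's methods, cells were prepared over 4 days from 4 mice a day. A term for fours of successive library numbers, which are not stated to be days, gave 0 member calls and moved none of the 12 differences by over 1.5 times. Members with few UMIs, *Tap1*, *Irf7* and *Nlrc5* first, were limited by depth.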

Other observations

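Most of the few *Ifng* UMIs, from the gene for interferon gamma, lay in ependymal cells. Of 57 UMIs, 40 were in 37 of 3382 ependymal cells and 6 in 3 of 5388 microglia. The ependymal cells with a UMI came from 11 of 16 libraries, with at most 7 cells in any one. They were 26 ciliated ependymal cell-like and 11 tanycyte-like cells. Ependymal cells also had the highest mean level of *Nlrc5*, with 111 of its 306 UMIs. Whether these UMIs are transcripts of the gene or of an overlapping one was not tested.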
